A study of Mus musculus with 16 samples.

Results

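Genes of the endoplasmic reticulum (ER) stress and amino acid responses were followed across 4 RNA-seq libraries of cultured mouse cortical neurons. The 39 genes were taken from a fixed list of symbols, and all 39 were present among the 22440 genes of each deposited table. The neurons were primary cultures made from Swiss-Webster embryos at embryonic day 16. The series has 16 samples, of which 12 are chromatin samples and were not analysed here. Of the RNA libraries, 1 is a control (here the etoposide control), 1 is from neurons exposed to 5 µM etoposide for a time the labels leave out, 1 is another control (here the NMDA control) and 1 is from neurons stimulated with NMDA. Etoposide is a poison of type II topoisomerases, and NMDA is an agonist of excitatory glutamate receptors. A concentration of 50 µM, an exposure of 10 min and a recovery of 10 min are stated for NMDA in most experiments, without saying that the RNA cultures were among them. Titles of the controls name no treatment, and the labels do not say whether the pairs were grown or sequenced together. Each group is 1 library, so no difference below could be checked between replicates, and p-values are left out.

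When unfolded proteins fill the ER, 3 membrane sensors respond. PERK (Eif2ak3) phosphorylates the initiation factor eIF2, which slows protein synthesis but favours translation of the transcription factor ATF4. Lack of amino acids reaches ATF4 through another eIF2 kinase. ATF4 then switches on genes for amino acid synthesis and uptake, and with prolonged stress the factor CHOP (Ddit3). IRE1 (Ern1) splices the messenger of XBP1, and ATF6 is cut free from the membrane, and these branches raise chaperones, folding enzymes and the machinery that degrades misfolded proteins. Neurons secrete and insert many membrane proteins, and serine made by Phgdh and Psat1 is known to be supplied largely by astrocytes. The 39 genes were read in groups by role, with 18 in the ATF4 branch (10 regulators and other targets, 8 amino acid genes), 14 ER chaperones and folding enzymes, 4 for the sensors with Xbp1, and 3 for ER-associated degradation.

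The promoter elements of these genes are shown because the branches compared below are named for the factors that bind them. RefSeq windows (build GRCm38.p6) from 250 bases before to 50 bases after a gene's start were found for 35 of the 39 genes, with none listed for Atf6, Slc7a5, Hyou1 and Manf. The core of the C/EBP-ATF response element, through which ATF4 acts, was searched as TGATGNAA on both strands. It was present for 6 of 17 ATF4-branch genes, for Herpud1, and for 0 of 12 chaperones, against 3.97% of all 32851 promoter windows. The 6 were Asns, Chac1, Nupr1, Slc7a11, Trib3 and Vldlr. In the windows below, on the gene's own strand with 15 bases on each side, capitals mark the core or its reverse complement.
Asns (chr6:7693210-7693247, minus strand): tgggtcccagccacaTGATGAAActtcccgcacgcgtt
Chac1 (chr2:119351034-119351071, plus strand): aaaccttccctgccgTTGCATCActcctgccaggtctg
Nupr1 (chr7:126625558-126625595, minus strand): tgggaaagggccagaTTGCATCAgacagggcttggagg
Slc7a11 (chr3:50443657-50443694, minus strand): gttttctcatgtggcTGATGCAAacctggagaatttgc
Vldlr (chr19:27216805-27216842, plus strand): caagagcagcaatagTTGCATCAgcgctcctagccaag
Herpud1 (chr8:94386302-94386339, plus strand): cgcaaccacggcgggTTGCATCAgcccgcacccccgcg

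The ER stress response element, bound by ATF6 with NF-Y, was searched as CCAAT and CCACG separated by 9 bases, on both strands. It was present for 7 of 12 chaperones and for 0 of 17 ATF4-branch genes, against 0.119% of all windows. Its second form, ATTGG and CCACG separated by 1 base, was present for Dnajb11 and Herpud1, against 0.0365% of all windows. TGACGTGG, a core bound by XBP1 and ATF6, was found for 0 of the 35 genes and in 0.676% of all windows. The motifs share letters, since TGACGTGG ends in CGTGG, the reverse complement of the CCACG in both forms of the element. A match is a description of the sequence. Capitals below mark the whole element, spacer included.
Hspa5 (chr2:34772010-34772058, plus strand): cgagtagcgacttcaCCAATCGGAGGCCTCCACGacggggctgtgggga
Hsp90b1 (chr10:86705518-86705566, minus strand): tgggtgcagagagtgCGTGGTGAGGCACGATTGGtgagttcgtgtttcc
Calr (chr8:84847060-84847108, minus strand): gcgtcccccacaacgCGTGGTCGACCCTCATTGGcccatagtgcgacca
Canx (chr11:50325785-50325833, minus strand): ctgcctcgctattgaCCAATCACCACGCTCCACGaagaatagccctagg
Creld2 (chr15:88819505-88819553, plus strand): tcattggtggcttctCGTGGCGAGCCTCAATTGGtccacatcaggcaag
Dnajc3 (chr14:118937812-118937860, plus strand): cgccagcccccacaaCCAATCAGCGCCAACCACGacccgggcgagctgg
Pdia6 (chr12:17266476-17266524, plus strand): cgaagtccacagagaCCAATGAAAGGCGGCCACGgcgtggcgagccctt
Herpud1, second form (chr8:94386362-94386402, plus strand): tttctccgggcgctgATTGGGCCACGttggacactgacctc

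Values are FPKM, fragments per kilobase of transcript scaled to the library's total. Steps between the lowest values put 1 fragment on 1 kb near 0.0698 and 0.0865 FPKM in the etoposide control and its treated library and near 0.0518 and 0.0546 in the NMDA control and its treated library, or totals of about 14300000, 11600000, 19300000 and 18300000 fragments. A single feature, Mir5109, held 76.5% and 68.7% of summed FPKM in the etoposide pair and 51.9% and 52.3% in the NMDA pair, and its part in the scale was not tested. The pairs lie on different scales, since the median ratio of genes at 5 FPKM or more in both libraries was 2.88 for the NMDA control over the etoposide control, 0.787 for etoposide over its control and 1.03 for NMDA over its control. A relative log2 fold is therefore used below, log2((FPKM + 1)/(FPKM + 1)) minus its median over all genes compared (-0.32, 0.02 and 1.32 for etoposide, NMDA and the controls). Within a treated pair the pseudocount shrinks differences of low genes. In the etoposide pair, where the typical ratio was 0.787, it also pulls the relative log2 fold of low genes upward. Between pairs, whose scales differ, it pulls genes of a few FPKM toward the library of the lower scale and can enlarge a difference or turn its sign. Ratios are plain FPKM ratios as deposited, and their 95% intervals, built on fragment numbers estimated from those steps, hold counting error alone. Neuronal markers were present in every library, with Tubb3 between 101 and 653 FPKM, and microglial markers summed to at most 5.71 FPKM over 8 genes.

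All but 1 of the 39 genes stood above the median gene in each of the 4 libraries, and the exceptions were Ern1 or Nupr1. Their median level was 8.22 FPKM in the etoposide control and 6.14 in the treated library of that pair, and 39.7 and 40.7 in the NMDA pair. Canx (61.6 FPKM), Hspa5 (47.7) and Atf4 (45.9) led in the etoposide control, and Hspa5 (60.9), Atf4 (43.9) and Calr (35.3) led with etoposide. Atf4, Hspa5 and Calr led both libraries of the NMDA pair, at 239, 229 and 215 FPKM in the control and 248, 238 and 209 in the treated library. Atf4 messenger is made in abundance in unstressed cells and is controlled mainly in translation, which FPKM does not read. Ern1 had the lowest level of the list in 3 libraries, at 0.676 FPKM in the etoposide control, 1.46 in the NMDA control and 1.28 with NMDA. With etoposide the lowest was Nupr1 at 0.183.

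**Figure D1:**
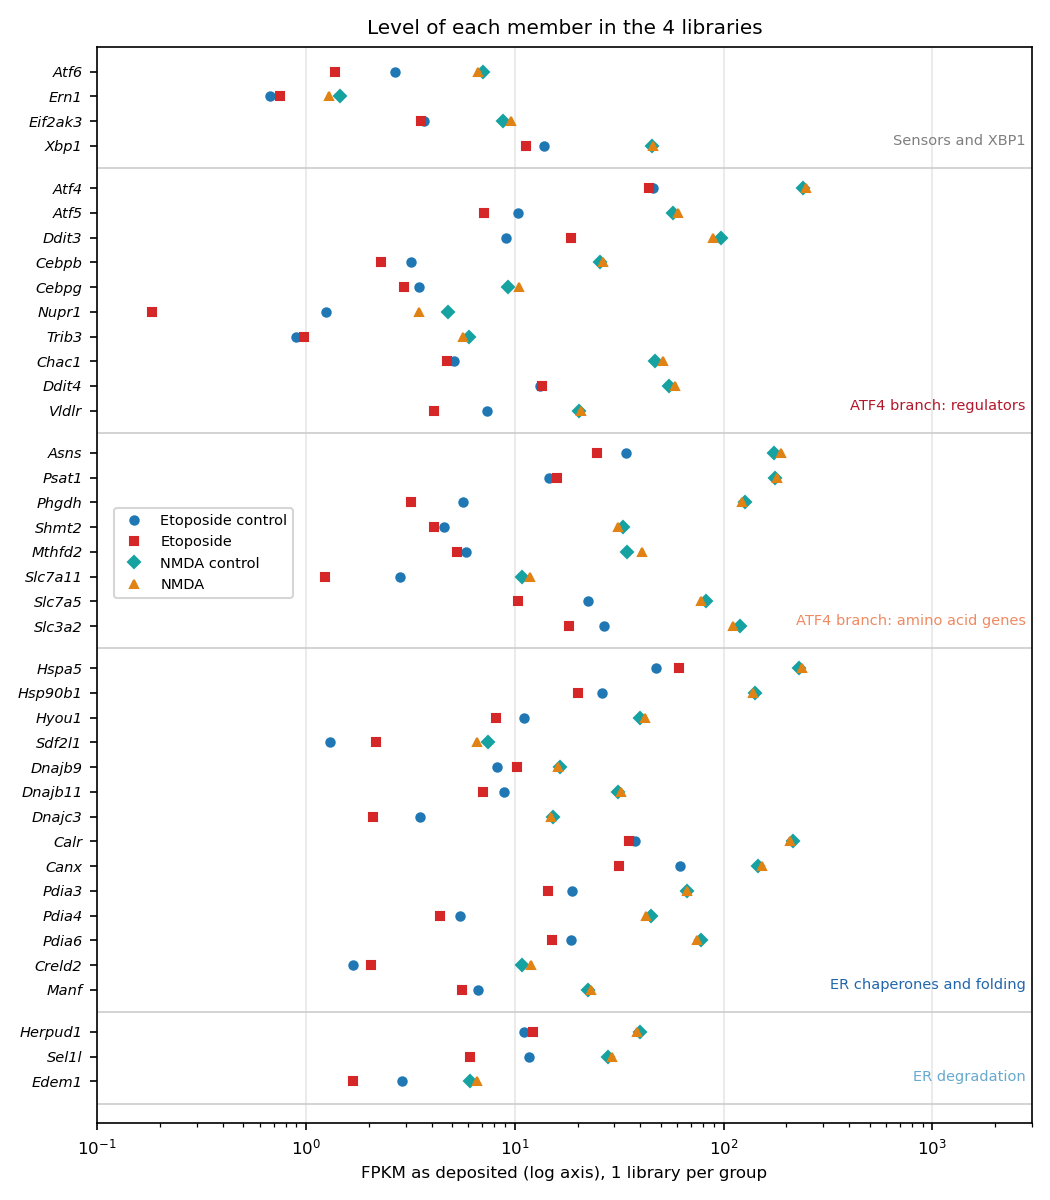
FPKM as deposited (log axis) of each of the 39 genes, 1 point per library, with the genes in groups by role. The NMDA control and the NMDA library lie close together for nearly every gene and to the right of the etoposide pair, and Ddit3 and Nupr1 stand out by the gap between etoposide and its control.

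With etoposide, the genes did not move together. Of the 37 that reached 1 FPKM in either library of that pair, Ddit3 was at least 2-fold higher relative to all genes, and 0 were at least 2-fold lower, against 1.47% higher and 2.08% lower of the 10681 genes compared. Their median relative log2 fold was 0.03, with 20 above and 17 below the median of all genes. Ern1 and Trib3 were under 1 FPKM in both libraries of the pair and are given by their levels alone. The authors' deposited table for etoposide held 1 member, Slc7a11, among its 692 genes, where 3.03% of all 22440 genes were listed as lower and 0.0535% as higher.

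Ddit3, which encodes CHOP, was at 9.10 FPKM in the etoposide control and 18.7 with etoposide, about 126 and 209 fragments. Its levels in the other pair were 96.7 FPKM in the NMDA control and 88.6 with NMDA. The etoposide ratio was 2.05 (interval 1.64 to 2.58), and the relative log2 fold was 1.28. The treated library thus stood above its own control, and levels of the other pair are on another scale. Against the NMDA control the relative log2 fold with etoposide was -0.64, and -0.31 after median scaling (the numerator library divided by the median ratio of genes at 5 FPKM or more), so the direction depended on the control. Compared with genes in the same of 10 bins of transcript length, the fold against its own control was 0.84, under the 2-fold size. The Ddit3 locus in the tables (chromosome 10, 126727849 to 126748842, mm9) is shared with Mars, a tRNA synthetase gene on the opposite strand whose exons overlap it. Mars was at 8.77 and 8.27 FPKM in the etoposide pair, so the ratio of Ddit3 to Mars was 1.04 in the control and 2.26 with etoposide. Reads from the overlap cannot be told apart if strand was not used.

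Other regulators of the ATF4 branch stayed nearer to all genes with etoposide. Atf4 itself was at 45.9 and 43.9 FPKM (ratio 0.957, interval 0.874 to 1.05), a relative log2 fold of 0.26. Ddit4, an inhibitor of the growth kinase mTOR, was at 13.2 and 13.4 FPKM, and Chac1, which breaks down glutathione, at 5.13 and 4.72. Trib3, a pseudokinase that restrains ATF4 and CHOP, was at 0.898 and 0.976 FPKM from about 26 and 23 fragments. These 4 genes thus had ratios near 1 where the typical gene had 0.787. Intervals of the Chac1 ratio (0.691 to 1.219) and the Trib3 ratio (0.597 to 1.998) include 0.787. Those of Atf4 and Ddit4 (0.861 to 1.202) do not. Within bins of transcript length Atf4, Ddit4 and Chac1 lay at 0.03, 0.12 and -0.0039, against 0.26, 0.34 and 0.22 on the relative scale. The C/EBP partners Cebpb (3.18 and 2.30 FPKM) and Cebpg (3.49 and 2.93) and the factor Atf5 (10.3 and 7.15) lay between -0.15 and 0.13 on the relative scale.

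Nupr1 and Vldlr were on the low side of this group. Nupr1 (chromosome 7, 133766760 to 133768984), a small stress-induced chromatin protein, was at 1.25 FPKM in the etoposide control and 0.183 with etoposide, about 44 and 5 fragments. As deposited this is a ratio of 6.86 in favour of the control (interval 2.82 to 23.0), while the relative log2 fold was -0.61 because the pseudocount compresses so low a gene. In the NMDA pair it was at 4.79 and 3.48 FPKM, also lower in the treated library. Vldlr, the very low density lipoprotein and reelin receptor, was at 7.33 and 4.11 FPKM in the etoposide pair, a relative log2 fold of -0.38.

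Of the 8 amino acid genes, 3 lay above the median gene with etoposide, all of them enzymes. Slc7a5, the large neutral amino acid transporter LAT1, had 22.3 FPKM in the etoposide control against 10.3 after treatment, and 82.7 and 77.8 in the NMDA pair. The control was 2.16-fold higher (interval 1.93 to 2.42), a relative log2 fold of -0.72, the lowest of all members compared. Its obligate partner Slc3a2 (CD98) was at 26.8 and 18.1 FPKM, so the ratio of Slc7a5 to Slc3a2 was 0.833 in the control and 0.571 with etoposide, and 0.690 and 0.703 in the NMDA pair. Slc7a11, the cystine transporter that partners the same CD98, was at 2.81 and 1.23 FPKM, 2.28-fold lower with etoposide in the authors' deposited table (relative log2 fold -0.45). All 3 transport genes were thus below the median of all genes.

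Among the synthesis enzymes, Psat1 was highest relative to all genes, at 14.6 and 15.96 FPKM in the etoposide pair (relative log2 fold 0.44). Phgdh, which makes the substrate of Psat1 as the entry step of serine synthesis, was at 5.63 and 3.18 FPKM (relative log2 fold -0.34). Consecutive enzymes of the same pathway therefore lay on opposite sides of the median gene. Asns, asparagine synthetase, was at 34.2 and 24.6 FPKM, and the mitochondrial folate enzymes Shmt2 (4.59 and 4.10) and Mthfd2 (5.85 and 5.29) lay at 0.19 and 0.20 on the relative scale. Astrocyte markers summed to 197 FPKM over 9 genes in the etoposide control and 110 with etoposide, a ratio of 0.560. Neuronal markers had a ratio of 0.610, progenitor markers 0.353 and oligodendrocyte lineage markers 0.261, so sums of these 4 lists were below the typical 0.787. Excitatory neuron markers (0.532) and vascular and fibroblast markers (0.106) were also below it. The sum of inhibitory neuron markers (1.30) was above it, with Sst at 34.6 and 87.9 FPKM. Gad1 was at 32.4 and 20.1 FPKM, and of these 8 markers 5 lay below the median of all genes and 3 above. The sum of the barely detected microglial markers (0.952) was also above the typical ratio. The part of these marker differences in the Phgdh value was not tested.

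Chaperones and folding enzymes ran from -0.62 to 0.77 with etoposide, and the ATF4 branch from -0.72 to 1.28. The upper end of the ATF4 branch was Ddit3 alone, and its next gene was Psat1 at 0.44. Hspa5 (BiP), the master ER chaperone, had 47.7 FPKM in the etoposide control and 60.9 after treatment, from about 1786 and 1840 fragments, against 229 and 238 in the NMDA pair. Its ratio was 1.28 (interval 1.195 to 1.363), a relative log2 fold of 0.67. Sdf2l1 (1.31 and 2.15 FPKM), Dnajb9 (8.22 and 10.3) and Creld2 (1.68 and 2.05), which assist or work beside BiP, lay at 0.77, 0.61 and 0.51. Sdf2l1 and Creld2 rest on 21 to 33 fragments a library, and the intervals of their ratios were 0.905 to 3.06 and 0.715 to 2.02. Both include 1, and that of Creld2 also includes the typical 0.787.

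Canx (calnexin), the membrane-bound lectin chaperone, lay at the other end. It was at 61.6 FPKM in the etoposide control and 31.7 with etoposide, a ratio of 0.514 (interval 0.483 to 0.548) and a relative log2 fold of -0.62. Calr (calreticulin), its soluble counterpart, was at 37.6 and 35.3 FPKM, so the ratio of Canx to Calr went from 1.64 in the control to 0.898 with etoposide. The NMDA pair had 0.678 and 0.731, lower than either, so the control of the etoposide pair stood apart from the other 3 libraries in this ratio. The remaining 8 members of the group, Hsp90b1 (GRP94), Hyou1, Dnajb11, Dnajc3, Pdia3, Pdia4, Pdia6 and the secreted survival factor Manf, lay between -0.22 and 0.11. The median of the 14 was 0.04, with 9 above 0.

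Sensors and degradation genes also spread to both sides with etoposide. Eif2ak3 (PERK) was at 3.67 and 3.55 FPKM, Atf6 at 2.68 and 1.38, and Ern1 (IRE1) at 0.676 and 0.750. Xbp1, whose spliced form is not read separately here, was at 13.8 and 11.3 FPKM. Of the degradation genes, Herpud1 was at 11.0 and 12.2 FPKM (relative log2 fold 0.46), and Sel1l and Edem1 were at 11.8 and 6.14 and at 2.89 and 1.69 (-0.52 and -0.21). Sel1l, the scaffold of the ubiquitin ligase complex, and Herpud1, which recruits it, thus lay on opposite sides of the median gene.

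**Figure D2:**
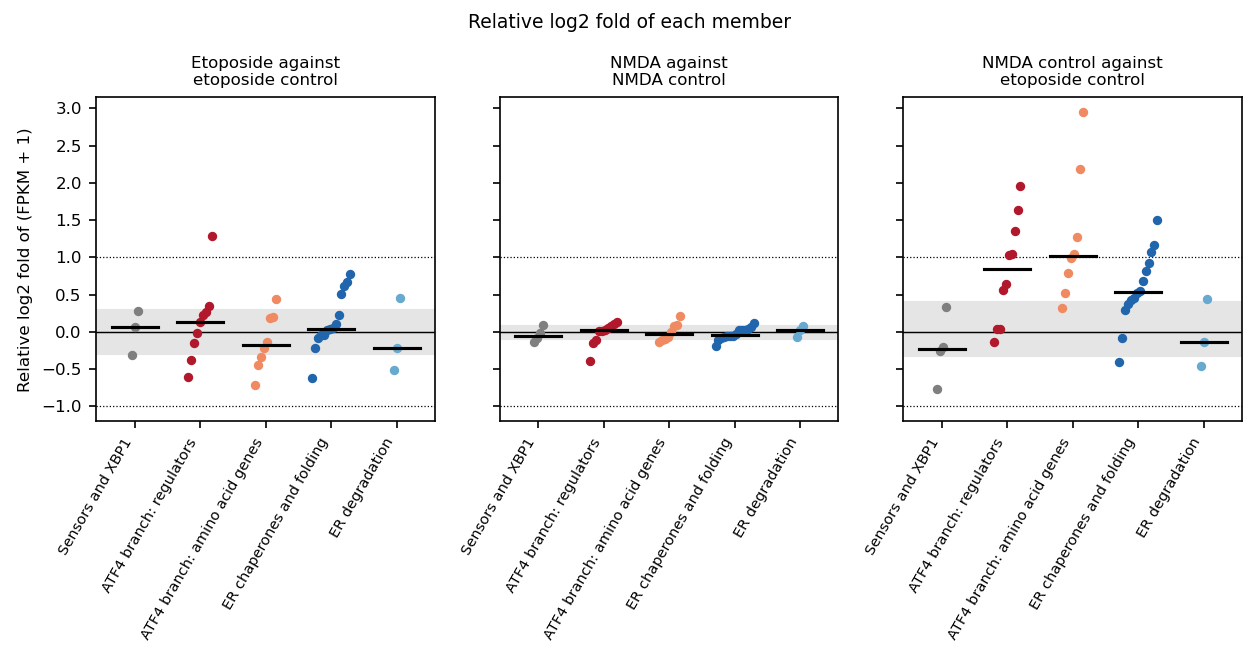
Relative log2 fold of each member compared, by role, for the 3 comparisons. Points are genes, black bars are group medians, the grey band spans the middle of all genes from the lower to the upper quartile, and dotted lines mark the 2-fold size. Ddit3 is the single point past the line with etoposide, 0 pass it with NMDA, and 12 lie above it between the controls.

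Transcript length moved with these values. Across the 37 members compared, which are genes of 1 pair of libraries and share their depth, Spearman's rho of the relative log2 fold with etoposide and the longest annotated transcript was -0.61, beside -0.43 over the 10442 genes with a length. The 9 members compared with transcripts over 4 kb had a median of -0.22 with 2 above 0, and all genes of that length had -0.20. For the 28 shorter members it was 0.08, beside 0.11 for all shorter genes. Atf6, Vldlr, Slc7a11, Dnajc3, Sel1l and Edem1 are among the long members, whereas Slc7a5 (3515 nt), Canx (3779 nt) and Nupr1 (2449 nt) are not. Relative to genes in their own length bin these 3 stayed low, at -0.68, -0.53 and -0.68, and Hspa5 stayed high at 0.60. Of the long members, Atf6 (-0.0006), Edem1 (-0.0001), Dnajc3 (-0.01) and Vldlr (-0.07) then lay near genes of their length. Slc7a11 was at -0.14 and Sel1l at -0.30 by the same measure, and the short Sdf2l1 fell from 0.77 to 0.33.

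**Figure D3:**
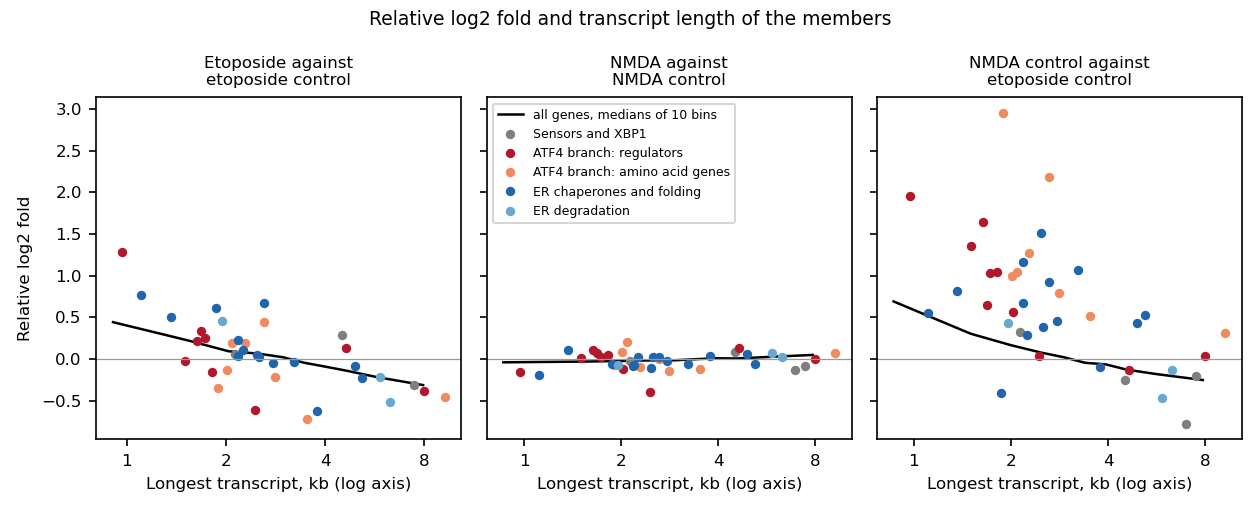
Relative log2 fold of each member against the length of its longest annotated transcript (log axis), coloured by role, with the medians of all genes in 10 bins of length as a black line. The line slopes down with etoposide (rho -0.43 over all genes) and between the controls (-0.36) and is nearly flat with NMDA (0.16).

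With NMDA the 39 genes stayed close to the NMDA control. None passed the 2-fold size in either direction, against 0.414% higher and 0.729% lower of 13028 genes compared. The authors' deposited table for NMDA, in which 0.111% of all genes were listed as higher and 0.169% as lower, held 0 members. Relative log2 folds ran from -0.40 (Nupr1) to 0.21 (Mthfd2), with a median of 0.00, 20 above and 19 below. Mthfd2 was at 34.4 and 40.7 FPKM, control first, and Cebpg, next in order, was at 9.24 and 10.4. Below the median gene after Nupr1 came Sdf2l1 (7.46 and 6.56 FPKM), Ddit3 (96.7 and 88.6) and Slc3a2 (120 and 111). Atf4 (239 and 248), Asns (175 and 189) and Hspa5 (229 and 238) differed by less than 0.1 on the relative scale. The interval of the Hspa5 ratio, from about 11582 and 11373 fragments, was 1.01 to 1.06.

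The controls differed from each other far more than NMDA differed from its control. Of the 39 genes, 12 were at least 2-fold higher in the NMDA control than in the etoposide control relative to all genes and 0 were at least 2-fold lower, against 8.02% and 2.96% of the 12987 genes compared. After median scaling 7 were higher and 0 lower, against 7.54% and 2.3% of the genes compared. The median of the members compared was 0.55, with 31 of 39 above 0. ATF4-branch genes made up 9 of the 12 (Phgdh, Psat1, Ddit3, Chac1, Cebpb, Shmt2, Atf5, Mthfd2 and Atf4), and the other 3 were Pdia4, Calr and Hsp90b1. Those that passed also after median scaling were Phgdh, Psat1, Ddit3, Chac1, Pdia4, Cebpb and Shmt2.

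Phgdh and Psat1, of serine synthesis, led this difference. Phgdh (chromosome 3, 98117094 to 98143892) was at 5.63 and 3.18 FPKM in the etoposide pair and at 127 and 123 in the NMDA pair. Between the controls the ratio was 22.6 (interval 19.2 to 26.7) where the typical gene had 2.88, a relative log2 fold of 2.95. Psat1 (chromosome 19, 15979613 to 15999549) was at 14.6, 15.96, 176 and 179.8 FPKM in the same order (relative log2 fold 2.18). Higher FPKM as deposited is shared by most genes, since 9754 of the 12987 compared were then at least 2-fold higher in the NMDA control. Shmt2 (4.59 and 32.9 FPKM in the controls) and Mthfd2 (5.85 and 34.4), which pass one-carbon units from serine, lay at 1.28 and 1.05, and Asns (34.2 and 175) just under the 2-fold size. The transport genes were nearer to all genes, with Slc3a2 at 0.80, Slc7a5 at 0.52 and Slc7a11 at 0.32.

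Markers of other cells differed between the controls as well. The 9 astrocyte markers summed to 197 FPKM in the etoposide control and 1812 in the NMDA control, with Fabp7 at 94.1 and 867, and none was at 0 in any library. Over the typical ratio of 2.88, their sum was 3.19 times higher, that of 8 oligodendrocyte lineage markers 3.28 times and that of 9 progenitor markers 1.61 times, while 9 neuronal markers were at 0.890. Their part in the Phgdh and Psat1 values, and in those of the other members, was not tested. Leaving out Phgdh and Psat1, 10 of the remaining 37 genes were at least 2-fold higher, against 8.02% of all genes compared, and the median of the ATF4 branch was 0.90. Leaving out these genes does not test the part of other cells in the rest. In a bulk culture, fewer cells of a type and less RNA per cell cannot be told apart.

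CHOP came next after these enzymes of serine synthesis. Ddit3 was at 9.10 FPKM in the etoposide control and 96.7 in the NMDA control, a ratio of 10.6 (interval 8.89 to 12.9) and a relative log2 fold of 1.95. Its ratio to Atf4, which no scaling of a library can alter, was 0.198 and 0.425 in the etoposide pair, control first, and 0.405 and 0.356 in the NMDA pair. By that ratio the etoposide control stood apart, and etoposide lay with the NMDA pair. The ratio of Ddit3 to Hspa5 was 0.191 and 0.307 in the etoposide pair and 0.422 and 0.373 in the NMDA pair. There etoposide lay between its control and the NMDA pair. Atf4 to Hspa5 was 0.962, 0.721, 1.04 and 1.05 in the same order, with etoposide farthest from the NMDA pair. Which library stood apart thus depended on the genes in the ratio. Transcripts of Ddit3 (969 nt) and Atf4 (1724 nt) also differ in length. Mars, which overlaps Ddit3, was 6.78-fold higher in the NMDA control. Chac1 (chromosome 2, 119176978 to 119180062) was at 5.13 and 46.9 FPKM in the controls (relative log2 fold 1.64) and at 4.72 with etoposide and 51.5 with NMDA. Cebpb was at 3.18 and 25.7 FPKM (1.35), and Atf4 at 45.9 and 239 (1.03).

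Not all ATF4-branch genes took part. Vldlr (7.33 and 20.4 FPKM in the controls), Nupr1 (1.25 and 4.79) and Cebpg (3.49 and 9.24) lay at 0.04, 0.04 and -0.13, close to the median gene. For Nupr1 the plain ratio was 1.32 times the typical one, and its interval (2.76 to 5.41) includes 2.88. Presence of the C/EBP-ATF core in the promoter window did not mark the higher genes. The 6 genes with the core had a median of 0.44 between the controls and the 11 with a window but no core 1.05. Ddit3, Psat1 and Phgdh are among the latter, and a window of 300 bases may miss an element that lies farther away.

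Among the chaperones, Pdia4 was the most different, at 5.49 FPKM in the etoposide control and 45.2 in the NMDA control (ratio 8.23, interval 7.11 to 9.58, relative log2 fold 1.51). Calr (37.6 and 215 FPKM), Hsp90b1 (26.2 and 142) and Hspa5 (47.7 and 229) followed at 1.16, 1.07 and 0.92. Canx (61.6 and 146) and Dnajb9 (8.22 and 16.5) lay below the median gene at -0.09 and -0.40, as did the sensors Eif2ak3 (-0.25) and Atf6 (-0.20) and the degradation genes Edem1 (-0.46) and Sel1l (-0.13). Ern1, at 0.676 and 1.46 FPKM, had a relative log2 fold of -0.77 under the pseudocount, but its plain ratio of 2.16 had an interval (1.64 to 2.91) that includes the typical 2.88. The interval of the plain Atf6 ratio of 2.62 (2.29 to 2.99) includes 2.88 too. The 8 chaperones with either form of the ER stress element had a median of 0.75, and the 4 with a window but neither form 0.50.

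Set against each other, the ATF4 branch stood above the chaperones between the controls and not within the treated pairs. Its median relative log2 fold was 1.01 against 0.54 for the chaperones between the controls, a difference of 0.48. The same difference was -0.06 with etoposide and 0.05 with NMDA. Within a library, the median ATF4-branch gene was at 6.55 FPKM and the median chaperone at 9.92 in the etoposide control, and at 4.99 and 9.13 with etoposide. In the NMDA control they were at 50.6 and 42.3, and with NMDA at 54.9 and 42.4. The order of the branches was thus reversed between the pairs and kept within each pair. The difference between the controls was 0.33 after median scaling, 0.29 relative to genes of like transcript length and 0.18 without the 8 members whose exons overlap another gene, among them Ddit3, Cebpb, Atf5 and Shmt2. Median transcripts were 2056 nt long in the ATF4 branch and 2497 nt (2496.5) in the chaperones, and rho of fold with length between the controls was -0.59 over the members.

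Etoposide was also read against the NMDA control, in a comparison that shares the etoposide library with the one above. On the relative scale 2 members were at least 2-fold higher (Ern1 at 1.18, a gene of low level, and Dnajb9 at 1.04) and 10 at least 2-fold lower, against 6.16% and 8.42% of the 12988 genes compared. The 10 were Phgdh (-3.27), Psat1, Pdia4, Chac1, Cebpb, Slc7a5, Atf5, Asns, Hsp90b1 and Shmt2 (-1.06). After median scaling, 1 member was at least 2-fold higher (Dnajb9, relative log2 fold 1.33) and 6 at least 2-fold lower, namely Phgdh (-3.17), Nupr1 (-1.68), Psat1 (-1.39), Cebpb (-1.33), Pdia4 (-1.26) and Chac1 (-1.21), against 6.9% higher and 10.9% lower of the 13533 genes compared. Hspa5, at 0.67 against its own control, was at -0.23, and at 0.14 after median scaling. Of the genes past the size after median scaling, Nupr1, Phgdh, Cebpb and Dnajb9 kept their sign with either control. Psat1, Chac1 and Pdia4 did not, nor did Ddit3. Against their own control the ratios of Cebpb, Pdia4 and Chac1 had intervals that include the typical 0.787, so their signs are uncertain.

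Further genes of the pathway were grouped in lists by function. With etoposide 0 of the 92 such genes compared passed the 2-fold size, where 1.47% of all genes were higher and 2.08% lower, and Ppp1r15a (GADD34), which restores eIF2 activity, came closest at 6.66 and 10.8 FPKM (relative log2 fold 0.95). In the same comparison Sec61b (14.95 and 21.9 FPKM) and Ssr4 (16.7 and 24.7), parts of the ER translocation channel and its partner complex, lay at 0.84 and 0.86, and P4hb, a protein disulfide isomerase, at 0.75. Slc1a4, a neutral amino acid transporter, was on the low side at 17.6 and 8.17 FPKM (-0.70). With NMDA 0 of 99 passed it, against 0.414% and 0.729% of all genes, and Edem2, at 11.5 and 8.64 FPKM, was farthest from all genes (-0.40). None of these further lists was compared within bins of transcript length, here or between the controls. Over all genes, rho of fold with length was -0.43 with etoposide and -0.36 between the controls, and its part in their values was not tested.

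Between the controls all 20 cytosolic tRNA synthetases, many of them ATF4 targets, had relative log2 folds above 0, with a median of 0.65. The lowest, Farsa (11.97 and 34.3 FPKM, 0.12), had a plain ratio just under the typical 2.88. This list was not read with median scaling, so a place above the median gene is uncertain for its lowest members. Mars was the single synthetase past 2-fold (8.77 and 59.4 FPKM), a smaller share than the 8.02% of all genes. Of 19 other amino acid genes 3 passed it, led by the cationic amino acid transporter Slc7a3 at 1.10 and 35.7 FPKM (2.80), with Psph, the last enzyme of serine synthesis, at 6.07 and 50.9 (1.55). Of the 23 degradation and translocation genes compared 2 passed it, near the 8.02% of all genes that were higher, with Sec61g at 5.21 and 135 FPKM (3.13) and Sec61b at 14.95 and 123 (1.64). Genes of eIF2 control had 0 of 13 past the size and a median of 0.26. With Psph, all 3 enzymes that make serine from the glycolytic intermediate were therefore higher in the NMDA control.

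**Figure D4:**
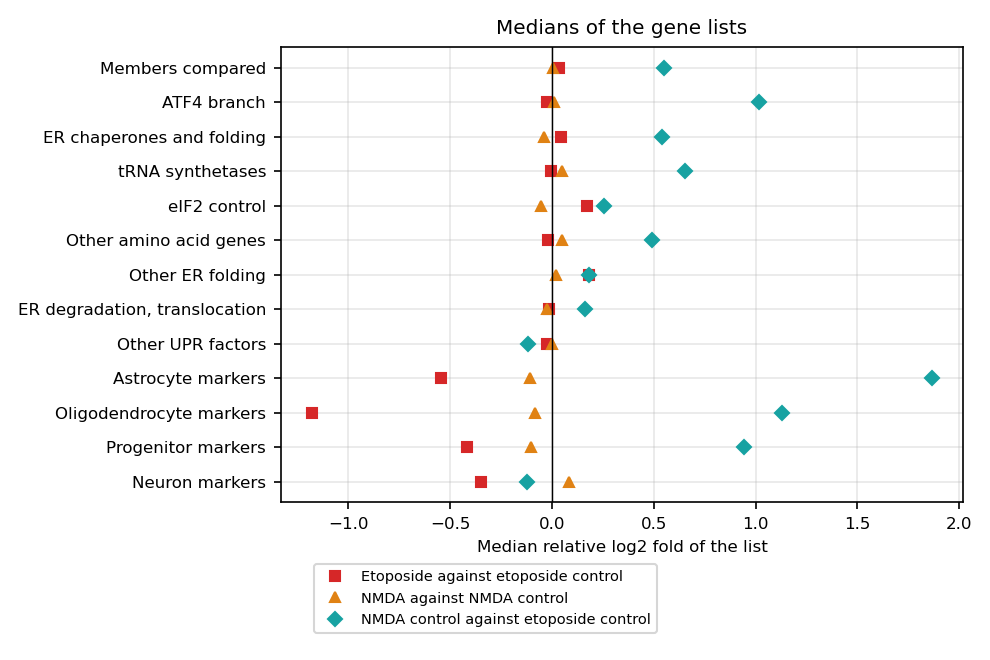
Median relative log2 fold of the member groups, of further pathway lists and of cell type markers, 1 symbol per comparison. Between the controls the ATF4 branch is at 1.01, chaperones at 0.54, tRNA synthetases at 0.65 and astrocyte markers at 1.87, while the member groups stay near 0 in both treated comparisons. Between the controls the sign of the other UPR factors, several of them low genes, is not read because of the pseudocount.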

How the data were processed

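The 4 RNA libraries were prepared from total RNA and read from both ends, per the labels' protocols. FPKM values were used as the authors deposited them. Cufflinks 2.0.0, Cuffdiff, TopHat, Bowtie and the build mm9 appear in the submitters' processing notes, with no role. Counting options and strand use are not given in the sources used here. The authors' deposited tables list 692 and 63 genes, by a rule not given here, with FPKM equal to the library tables within a relative tolerance of 0.0001.

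Groups followed the titles. Relative log2 folds used a pseudocount of 1 FPKM and genes at 1 FPKM or more in either library, and 2-fold was the size rule. Depth was read from single-exon genes, and 3 fragments on 1 kb are 0.209, 0.259, 0.155 and 0.164 FPKM in the order given in the report. Transcript lengths and overlaps came from GENCODE vM1, of the same build, matched for 21194 genes. Table starts count from 0 and 1 was added. Any member could be named, and of each further list the 2 largest relative folds per comparison. Members and lists were chosen with earlier results of these data known. The steps were tested on simulated data. Python 3.11.15, pandas 2.3.3 and scipy 1.17.1 were used.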

Additional observations from a re-analysis of the deposited data

How the results depend on the processing

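With 1 library per group no replicate could be left out. No paired analysis was possible because each group has 1 library. Medians were called moved from a shift of 0.05 in log2. Median scaling, length bins, overlapping genes and leaving out Phgdh and Psat1 were chosen after seeing the data.

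With etoposide, the counts of members at least 2-fold higher and lower (1 and 0) were 2 and 1 with a pseudocount of 0.1 FPKM, 0 and 1 with no filter or as deposited, 0 higher relative to genes of like transcript length, 2 and 10 against the other control, and 6 lower there with median scaling. As deposited, 51 of the 10681 genes compared were higher and 786 lower. Shares of all genes with the small pseudocount, with no filter and in length bins were not computed. The ATF4 branch minus chaperones (-0.06) was -0.14 with the small pseudocount, 0.0121 with no filter (opposite in sign), -0.0024 at 5 FPKM or more, and -0.43 and -0.64 against the other control without and with median scaling. The median of all members (0.03) took the opposite sign with no filter (-0.25), as deposited (-0.29), in length bins (-0.0006) and against the other control (-0.50, and -0.30 scaled). The chaperone median (0.04) did so in the same order, apart from length bins, at -0.26, -0.28, -0.48 and -0.19, and the ATF4 median (-0.02) at 5 FPKM (0.13) and with median scaling (0.0391). Ddit3 was at -0.64 and -0.31 against the other control.

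With NMDA, against the other control 13 members were higher, and 7 with median scaling, with differences of 0.59 and 0.45 between the branches and chaperone medians of 0.47 and 0.36, opposite in sign to -0.04. The share of all genes was not computed for NMDA against the etoposide control, so these counts are not read as a result about the members. Between the controls 8.02% of all genes were higher, and 7.54% with median scaling. At 5 FPKM the median of all members was -0.0057.

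Between the controls, the 12 higher members were 22 with no filter, 36 as deposited, 7 with median scaling and 7 without genes with overlapping exons. Of all 12987 genes compared, 9754 were higher as deposited and 8.02% on the relative scale, and with median scaling the share was 7.54%. The share of all genes with no filter was not computed. The branch difference of 0.48 was 0.35 with a pseudocount of 0.1, 0.33 with median scaling, 0.29 in length bins, 0.36 without Phgdh and Psat1 and 0.18 without overlapping genes. As deposited no median was subtracted, and with no filter the median came from all genes of the table. In these settings every gene compared therefore moved by the same amount. The cause of the other shifts was not tested.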
